A study of Mus musculus with 32 samples.

Results

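Etv5 knockout (Etv5-KO) embryonic stem cells were profiled by RNA sequencing in 2i and 16 h after 2i was withdrawn (N16h), and the genes that still respond to withdrawal without ETV5 are described here. The comparison uses every Etv5-KO library of those cultures, 5 of the 32 libraries in the series, chosen by genotype and culture in the labels: 3 in 2i (clones c16, c17 and c1) and 2 at N16h (clones c17 and c1). The series compares mouse embryonic stem cells that lack the transcription factors ETV5, RBPJ or TCF3, alone or combined, with their parental line, to ask which factors drive exit from naive pluripotency. All lines descend from RGd2, a mouse embryonic stem cell line that carries a destabilised GFP reporter at Rex1 (Zfp42). The controls used here are 6 RGd2 libraries, 3 in 2i and 3 at N16h, in each culture 2 of the parental line and 1 of a clonal derivative, and 6 libraries of Rbpj-KO cells, 3 in each culture from the same 3 clones.

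The medium called 2i holds inhibitors of GSK3 and of MEK1/2 in N2B27, and N16h cells were left in N2B27 alone. Because Etv5-KO cells are not maintained long-term under MEK inhibition, every line was kept in GSK3 inhibitor with LIF and moved to 2i shortly before the assay. Each knockout clone is a separate line, so the Etv5-KO replicates are clones, and only c17 and c1 were sequenced in both cultures. The labels list 3 RGd2 libraries and 2 Etv5-KO libraries at N16h, while the methods of the study place the lost library in the RGd2 group. The labels were followed, and the Etv5 counts given below separate the libraries by genotype in the way that the labels do.

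Naive embryonic stem cells hold the state of the preimplantation epiblast. On release from 2i, active GSK3 restores repression of beta-catenin target genes and active MEK1/2 restores ERK signalling downstream of autocrine FGF4, after which the naive transcription factors decline and genes of the formative, early postimplantation epiblast rise. ETV5 and its relative ETV4 are ETS family transcription factors whose genes respond to ERK signalling.

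Etv5 was disrupted with a pair of guide RNAs used together. Both are printed because the gene counts span all exons, so that reads from exons outside the edited interval still count toward Etv5. The 20-base target is in lower case and the following PAM, read from the annotated transcript, is in capitals. In GRCm38 the target of the first lies at chr16:22401804-22401823, inside coding exon 8 of the 13 exons of the Etv5 transcript, on the strand of the gene. The target of the second lies at chr16:22399336-22399355, inside coding exon 9 and on the opposite strand.
Exon 8 guide: cgcagctccgccaccccttcAGG
Exon 9 guide: gaaatacccgcctctcatgtAGG

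Etv5 transcript remained countable in the knockout clones at a reduced level (the gene lies at chr16:22381309-22439719, minus strand). Levels are given throughout as normalized counts, the deposited gene counts divided by a size factor from the ERCC spike-ins, which are synthetic RNAs added to each sample. Etv5 stood at 2246, 2092 and 2384 in 2i in clones c16, c17 and c1, and at 3373 and 2734 at N16h in c17 and c1. In RGd2 cells it stood at 16791, 14116 and 15517 in 2i and at 13157, 12468 and 11984 at N16h. The 5 Etv5-KO libraries thus lay below all 6 RGd2 libraries. Within Etv5-KO cells the change was 0.45 on the log2 scale (SE 0.16). This rise was not called when libraries were scaled by the trimmed mean of M values (TMM), which is 1 of the 6 among 12 alternative settings that lost it.

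The 5 Etv5-KO libraries held 30392452 to 41656532 counts in genes, and the 6 RGd2 libraries 5986857 to 46695457, the shallowest being the clonal RGd2 library in 2i. Spike-ins took 1.25 to 1.41% of counts in Etv5-KO 2i, 1.12 to 1.24% in Etv5-KO N16h, 0.991 to 1.39% in RGd2 2i and 1.32 to 1.40% in RGd2 N16h. A gene was called when edgeR's quasi-likelihood test gave a Benjamini-Hochberg adjusted p below 0.05 and its mean FPKM, a level per transcript length and depth, was at least 1 in one of the groups compared. Spike-in scaling moved the median of all genes tested to a log2 change of 0.24 in Etv5-KO cells and -0.23 in RGd2 cells, against -0.00 and -0.02 under TMM scaling. Response sizes are therefore read against those medians, and a difference between genotypes is called robust to scaling here where it passed under both.

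Withdrawal of 2i changed the expression of many genes without ETV5. Of 11839 genes past the FPKM minimum, 3688 rose (31.2%) and 1119 fell (9.45%) in Etv5-KO cells. Under TMM scaling the split was 2363 up (20.0%) and 2949 down (24.9%), and no gene called under both changed direction: 2363 rose and 1119 fell under both. By size, 1096 genes rose and 397 fell by at least 2-fold. Of the 1096, 565 were also called up in RGd2 cells, 47 were called down there and 484 were not called. The difference in response was called under both scalings for all 47 and for 220 of the 484. Both sets were picked by their calls in the libraries that enter this difference, which favours a difference of that sign. Of the 397, 306 were also called down in RGd2 cells, none was called up and 91 were not called. Both clones moved in the called direction for 4803 of the 4807 called genes, and the 2i and N16h libraries did not overlap for 4785 of them. The calls were made on these same libraries, which favours such agreement. Of all genes past the FPKM minimum, 64.2% had libraries that did not overlap (48.6% higher and 15.6% lower at N16h). RGd2 cells, over 11758 genes, had 1012 called up (8.61%) and 4380 called down (37.3%), or 2431 (20.7%) and 3036 (25.8%) under TMM scaling. In bulk samples fewer cells of a type and less RNA per cell cannot be told apart. Without the N16h library of clone c1 the rising set in Etv5-KO cells was 2085 genes, and without that of clone c17 the falling set was 721 genes.

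Early exit genes were defined as those called in RGd2 cells with at least a 2-fold change between 2i and N16h. Most of the rising ones still rose without ETV5. Of 437 early exit genes that rose in RGd2 cells, 348 (79.6%) were called up in Etv5-KO cells, beside 31.2% of all genes past the FPKM minimum, none was called down and 89 were not called. Their median log2 change was 2.11 in Etv5-KO cells and 1.60 in RGd2 cells, or 1.86 and 1.82 under TMM scaling, where 340 were called up in Etv5-KO cells beside 20.0% of all genes. Both clones rose for 428 of the 437.

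Early exit genes that fell were called in Etv5-KO cells in part. Of 957 that fell in RGd2 cells, 565 (59.0%) also fell in Etv5-KO cells, beside 9.45% of all genes past the FPKM minimum, 42 rose and 350 were not called. Their median log2 change was -0.68 in Etv5-KO cells and -1.46 in RGd2 cells, or -0.92 and -1.26 under TMM scaling, where 681 fell and 26 rose in Etv5-KO cells beside 24.9% of all genes called down. When the early exit genes were chosen under TMM scaling as well, 453 of 586 rising genes (77.3%) and 489 of 664 falling genes (73.6%) were called in the same direction in Etv5-KO cells and 20 falling genes were called up. Because these genes were chosen by their RGd2 values, the RGd2 medians describe the choice and their size is no test.

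Genes chosen in Rbpj-KO cells leave the RGd2 values out of the choice. Of 518 genes called up by at least 2-fold in Rbpj-KO cells, 422 (81.5%) rose in Etv5-KO cells (31.2% of all genes did), with a median log2 change of 2.05 in Etv5-KO and 1.29 in RGd2 cells, or 1.81 and 1.51 under TMM scaling. Of 412 called down, 329 (79.9%) fell in Etv5-KO cells (9.45% of all genes did), with medians of -1.19 in Etv5-KO and -1.96 in RGd2 cells, or -1.43 and -1.76 under TMM scaling. Among the falling genes the Etv5-KO median thus lay nearer to 0 than the RGd2 median under both scalings. The Rbpj-KO median of these falling genes, by which they were chosen, was -1.45, or -1.44 under TMM scaling.

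**Figure D1:**
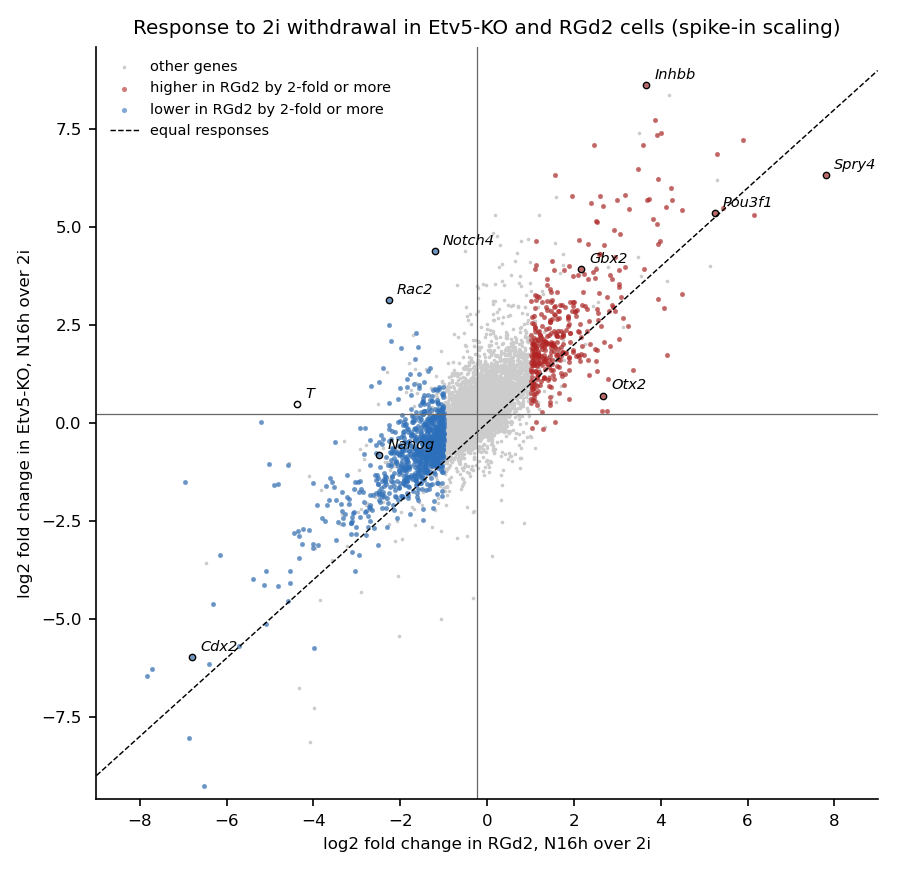
Each point is a gene with a mean FPKM of at least 1 in an Etv5-KO group, placed by its log2 change between 2i and N16h in RGd2 (horizontal) and Etv5-KO cells (vertical) under spike-in scaling, with grey lines at the medians of all genes tested (-0.23 and 0.24). Red genes rose and blue genes fell by at least 2-fold in RGd2 cells, and blue genes lie mostly above the dashed line of equal responses. T is ringed although it missed the FPKM minimum in Etv5-KO cells.

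The difference in response, the log2 change in Etv5-KO cells minus that in RGd2 cells, was tested as an interaction term in the same fit. It was called for 4550 of 12258 genes, 4485 more positive (36.6%) and 65 more negative (0.530%), around a median of 0.47 over all genes tested. Under TMM scaling the median was 0.02, and 1044 were more positive (8.52%) and 559 more negative (4.56%). All 1044 and all 65 were called under both scalings, and these 1109 genes are the ones treated below as differing. The median shifted by -0.45 from spike-in to TMM scaling, so the set joins the TMM positives to the spike-in negatives. Counts by direction under both scalings, here and below, therefore carry the shift between scalings, and TMM scaling alone gave 1044 and 559. Without the N16h library of clone c1 the more positive set was 2068 under spike-in scaling, without the 2i library of clone c1 it was 2969, without RGd2 2i replicate 31 (parental line) it was 2654, and without replicate 33 (the shallow clonal library) it was 7125. Among the early exit genes, 58 of the 437 rising genes responded more positively and 25 less under both scalings, while 288 of the 957 falling genes responded more positively and 4 more negatively. Both sets were chosen by their change in the RGd2 libraries that enter this difference, which favours a difference of the opposite sign. Of the genes chosen in Rbpj-KO cells, 108 of 518 rising genes responded more positively and 18 more negatively than in RGd2 cells, as did 110 and 5 of 412 falling genes, beside 8.52% and 0.530% of all genes.

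A difference in response can lie in the 2i level, the N16h level or both, and the levels of the genotypes describe which. Over the 1044 genes with a more positive response, the median log2 ratio of Etv5-KO to RGd2 was -0.59 in 2i and 0.65 at N16h, beside -0.20 and 0.23 over all genes tested. Over the 65 genes with a more negative response it was 1.04 in 2i and -0.09 at N16h. The ratios use spike-in scaling. The genes were chosen by their difference in response, so medians that move in that direction between the cultures follow from the choice. These medians do not hold for each gene, and Srms, described below, overlapped between genotypes in 2i.

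Against Rbpj-KO cells, which had 1363 genes called up and 1915 called down, the response of Etv5-KO cells was more positive for 1245 genes (10.2%) and more negative for 73 (0.597%) of 12218, or 649 (5.31%) and 369 (3.02%) under TMM scaling, and 649 and 73 under both. Of the 1044 genes that differed from RGd2 in the positive direction, 466 also differed from Rbpj-KO in that direction under both scalings, as did 20 of the 65 in the negative direction. These comparisons share the Etv5-KO libraries.

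The counts for each gene group stand beside the shares of all genes past the FPKM minimum. In Etv5-KO cells those shares were 31.2% up and 9.45% down, or 20.0% and 24.9% under TMM scaling, and in RGd2 cells 8.61% and 37.3%, or 20.7% and 25.8%. A member below the minimum could not be called, and the number of members past it in Etv5-KO cells is given where it falls short of the group.

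Most ERK response genes rose without ETV5. Of 24 genes that respond to FGF and ERK or feed back on them, 20 passed the FPKM minimum. In Etv5-KO cells 19 rose and none fell, with a median log2 change over the 24 of 1.68 against 0.24 for all genes tested. The 19 include the targeted gene Etv5 itself, whose remaining transcript was not called up under TMM scaling. In RGd2 cells 12 rose and none fell, with a median of 1.18, and all 12 were among the 19. Under TMM scaling 18 rose in Etv5-KO and 15 in RGd2 cells, with medians of 1.44 and 1.39. Egr1, an immediate early transcription factor, missed a call through the FPKM minimum alone. It was at 2.79, 5.91 and 0 in 2i and 72.5 and 50.7 at N16h in Etv5-KO cells (log2 change 4.48, adjusted p = 6.20e-11 in edgeR's quasi-likelihood test, Benjamini-Hochberg adjusted) and at 1.79, 3.82 and 0 and 10.4, 13.6 and 7.16 in RGd2 cells. Egr2, Fos and Fosl1 were also below the minimum, and Ier3 was past it and not called.

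Spry2, Dusp6 and Dusp4, which encode feedback inhibitors of the pathway, rose in both genotypes. Spry2, a Sprouty inhibitor of receptor tyrosine kinase signalling, was at 85.7, 60 and 66.8 in 2i (c16, c17 and c1) and at 822 and 996 at N16h (c17 and c1), with no overlap. Its log2 change was 3.67 (SE 0.19) in Etv5-KO cells and 2.32 in RGd2 cells, whose levels were 209.6, 134 and 96.9 in 2i and 828, 745 and 776 at N16h. Dusp6, the cytoplasmic phosphatase that inactivates ERK, was at 95.4, 70.1 and 75.7 in 2i and at 2174 and 2427 at N16h in Etv5-KO cells. RGd2 cells began higher, at 308, 215 and 319, and reached 2381, 2243 and 2256, so that the N16h levels were close and the response was larger in Etv5-KO cells (log2 changes of 4.83, SE 0.15, and 3.07). Dusp4, a nuclear phosphatase of the same kind, rose by 5.21 (SE 0.20) in Etv5-KO cells and by 3.82 in RGd2 cells on the log2 scale. Il17rd, a membrane antagonist of FGF signalling, rose by 0.94 (SE 0.12) in Etv5-KO cells.

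Spry4 and Etv4 rose less in proportion than in RGd2 cells, from a higher start. Spry4 went from 52.9, 27 and 39.1 in 2i to 3098 and 3385 at N16h in Etv5-KO cells, and from 8.06, 9.17 and 16.2 to 2144, 1955 and 2301 in RGd2 cells. Its log2 change was 6.33 (SE 0.17) without ETV5 and 7.81 with it, and the difference was -1.48 (SE 0.33, adjusted p = 8.74e-04 in edgeR's quasi-likelihood test, Benjamini-Hochberg adjusted). Etv4 went from 486, 387 and 484 to 4143 and 4778 in Etv5-KO cells and from 120.02, 116 and 105 to 2545, 2223 and 3017 in RGd2 cells. At both times the Etv5-KO libraries lay above all RGd2 libraries for these genes, although the difference in response of Etv4 was -1.18 (SE 0.19). Rbpj-KO cells likewise began above RGd2 cells for both genes and had smaller log2 changes, 5.37 for Spry4 and 3.43 for Etv4. The Etv5-KO response minus that of Rbpj-KO cells was 0.96 for Spry4, called under both scalings, and -0.13 for Etv4, not called. Spred3, another inhibitor of the pathway, had a difference of -0.40 that was not called under spike-in scaling and of -0.86 that was called under TMM scaling.

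Myc, the growth regulator, responded more strongly without ETV5. It rose from 57.8, 44.8 and 50.5 to 663 and 864 in Etv5-KO cells, a log2 change of 3.90 (SE 0.18), and from 205, 175 and 254 to 623, 553 and 624 in RGd2 cells, a log2 change of 1.55. The Etv5-KO 2i libraries were below the RGd2 2i libraries and the Etv5-KO N16h libraries above all RGd2 N16h libraries.

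Formative genes also rose as a group. Of 20, 19 of them past the FPKM minimum, 18 rose (31.2% of all genes did), none fell and Tead2 and Epha5 were not called in Etv5-KO cells. Their median log2 change was 1.98, or 1.74 under TMM scaling, where 18 rose. In RGd2 cells 17 rose under either scaling, each of which also rose in Etv5-KO cells under spike-in scaling, and the group median was 1.36, or 1.56 under TMM scaling. The difference in response was more positive under both scalings for 5 of the 20 and more negative for 2, beside 8.52% and 0.530% of all genes.

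Pou3f1 (Oct6), a POU factor of the postimplantation epiblast, rose from a low level in 2i. Its Etv5-KO levels were 5.57, 2.53 and 6.31 in 2i and 150.4 and 266 at N16h, where RGd2 cells had 17.9, 13.8 and 24.2 and 836, 627 and 436. The log2 changes were 5.36 (SE 0.38) and 5.24 (SE 0.33), and the difference of 0.12 (SE 0.53) was not called and was -0.38 under TMM scaling. Every Etv5-KO library lay below every RGd2 library of its culture. Fgf5, a ligand of the early postimplantation epiblast, had at most 1 read in any Etv5-KO 2i library, with levels of 0, 0 and 0.631, and reached 43.5 and 106 at N16h, a ratio of 319 (counting interval 56.6 to 12655). RGd2 cells had 17, 3.82 and 16.2 in 2i and 190.1, 179 and 103 at N16h.

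Otx2, a homeodomain factor of the epiblast, had the weakest called rise among the formative genes. It was already at 1032, 1143 and 998 in Etv5-KO 2i libraries, against 403, 351 and 303 in RGd2 2i libraries. At N16h it reached 1546 and 1885 in Etv5-KO cells and 2432, 2363 and 2030.2 in RGd2 cells. Its log2 change was 0.70 (SE 0.13) without ETV5 and 2.66 (SE 0.13) with it, a difference of -1.96 (SE 0.18, adjusted p = 1.24e-10 in edgeR's quasi-likelihood test, Benjamini-Hochberg adjusted), and of -2.43 under TMM scaling. Rbpj-KO cells also began above RGd2 cells, at 640, 571 and 751 in 2i, and Otx2 rose there by 1.27 on the log2 scale. The Etv5-KO response minus that of Rbpj-KO cells was -0.57, called under both scalings. Sall2, a zinc finger gene, had a difference of -0.21 that was not called and of -0.67 that was called under TMM scaling.

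Lef1, a mediator of Wnt signalling that rises with formative identity, remained far below RGd2 cells with a larger response. It was at 107, 65 and 80.7 in Etv5-KO 2i libraries and at 540.5 and 763 at N16h, and at 1790.4, 1483 and 1236 and 3711, 3393 and 2659 in RGd2 cells. The log2 changes were 2.94 (SE 0.21) and 1.10. The epithelial factor Grhl2 rose from 52.9, 29.6 and 68.1 to 2366 and 2987 in Etv5-KO cells, and RGd2 cells reached 2633, 2419 and 2279.8. Fgf15, a further FGF ligand, rose by 6.23 (SE 0.33) on the log2 scale in Etv5-KO cells and by 3.94 in RGd2 cells. Fgf17, another ligand, went from 7.66, 15.2 and 12.6 to 309.9 and 335 in Etv5-KO cells, while RGd2 cells held 458, 335 and 379.5 in 2i and 512, 492 and 359 at N16h.

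Of 10 genes of DNA methylation and demethylation, 8 rose and 1 fell in Etv5-KO cells under both scalings, beside 31.2% and 9.45% of all genes. In RGd2 cells 4 rose and 1 fell, or 6 and 1 under TMM scaling. The de novo methyltransferase gene Dnmt3a rose by 1.88 (SE 0.13) on the log2 scale, Dnmt3b by 2.09 (SE 0.14) and their cofactor Dnmt3l by 2.86 (SE 0.16). Dnmt3b had a more positive response in Etv5-KO than in RGd2 cells under spike-in scaling (0.81) and no called difference under TMM scaling (0.38). The 1 that fell was Prdm14, which restrains these methyltransferases.

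**Figure D2:**
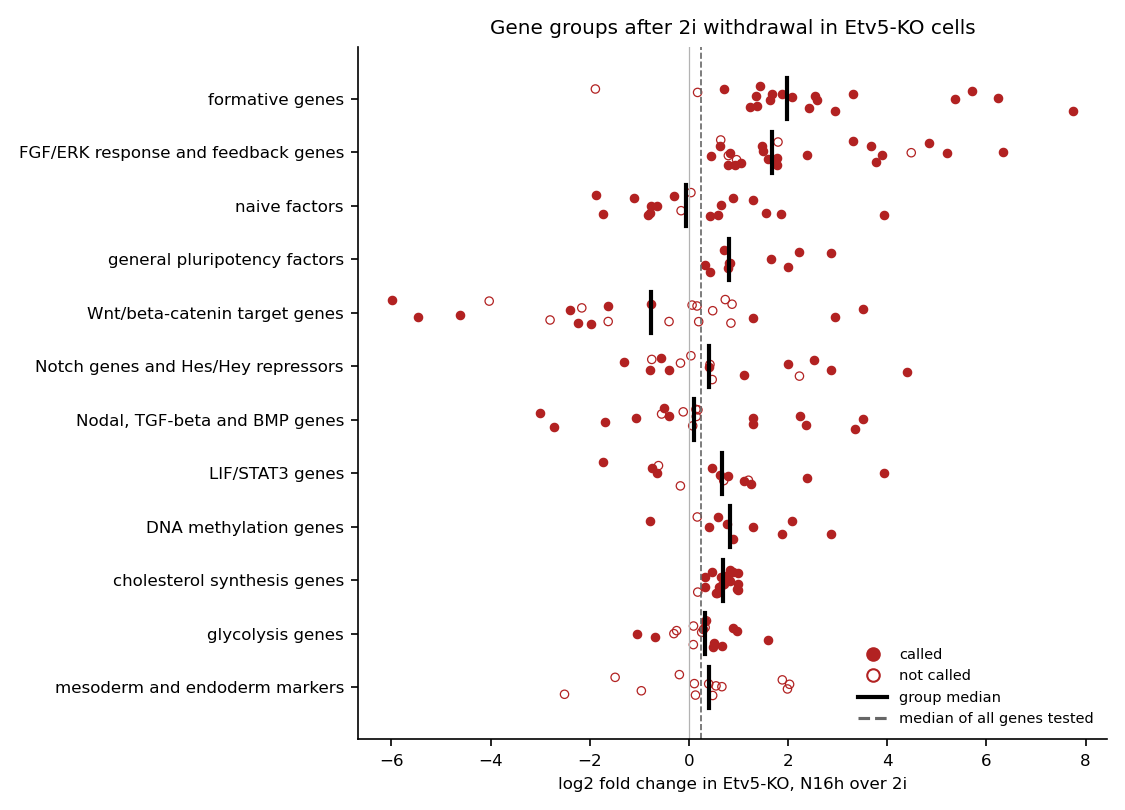
Log2 change between 2i and N16h in Etv5-KO cells under spike-in scaling for each tested member of 12 gene groups. Filled points were called, black bars are group medians (1.98 for formative genes, -0.06 for naive factors) and the dashed line is the median of all genes tested (0.24). Cholesterol synthesis genes sit in a narrow band, all but 1 above that line, and 12 of the 13 mesoderm and endoderm markers were below the FPKM minimum and could not be called.

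Naive factors split without ETV5. Of 18, 8 rose, 8 fell and 2 were not called in Etv5-KO cells, beside 31.2% up and 9.45% down over all genes, with a median log2 change of -0.06. Under TMM scaling 7 rose, 10 fell and 1 was not called, with a median of -0.30. In RGd2 cells 2 rose and 11 fell, with a median of -0.90, or 5 and 9 under TMM scaling, with a median of -0.70, so that the counts of the genotypes were closer under TMM scaling. The 8 that fell in Etv5-KO cells all fell in RGd2 cells too. The difference in response was more positive under both scalings for 11 of the 18 and more negative for none, beside 8.52% and 0.530% of all genes.

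Nanog, the homeodomain factor of naive pluripotency, fell less than in RGd2 cells. Its Etv5-KO levels were 28631, 27732 and 26084 in 2i and 15563 and 15438 at N16h. RGd2 cells had similar levels in 2i, 29105, 25360.00 and 20532, and 4399.7, 4466 and 4567 at N16h, so that the genotypes overlapped in 2i and not at N16h. The log2 changes were -0.83 (SE 0.12) and -2.48 (SE 0.11), a difference of 1.66 (SE 0.15, adjusted p = 1.13e-10 in edgeR's quasi-likelihood test, Benjamini-Hochberg adjusted). Klf2, a Krüppel-like factor, went from 2144, 1971 and 1949.9 to 1140.4 and 1233 in Etv5-KO cells and from 2069.8, 1886 and 4970.4 to 602, 484 and 406 in RGd2 cells. Its fall in Etv5-KO cells, -0.77 (SE 0.23), was not called without the N16h library of clone c17, at -0.71.

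Tbx3 and Prdm14 stood far above their RGd2 levels at N16h. Tbx3, a T-box factor, was at 5839, 5123 and 4920.2 in 2i and at 4547 and 4939 at N16h in Etv5-KO cells, where the groups overlapped and the change of -0.16 was not called (it was called, at -0.40, under TMM scaling). RGd2 cells fell from 4046, 3014 and 3626 to 709, 704 and 835. Prdm14 fell to 695 and 546 in Etv5-KO cells, a log2 change of -0.79 (SE 0.14), and to 186, 196 and 147 in RGd2 cells, a log2 change of -2.83.

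Esrrb, an orphan nuclear receptor, had a log2 change of -0.31 (SE 0.12) in Etv5-KO cells and -1.43 in RGd2 cells, a difference of 1.12 (SE 0.16). Its fall within Etv5-KO cells was called under both scalings but was lost when any 1 of 4 Etv5-KO libraries was left out, at -0.30 without the 2i library of c17 and -0.23 without that of c16, -0.29 without the N16h library of c17 and -0.34 without that of c1. Tfcp2l1 fell by 1.73 (SE 0.16) in Etv5-KO cells, from 33549, 33008 and 29294 to 9818 and 9402, with a difference from RGd2 cells that was called under spike-in scaling only (0.75, and 0.32 under TMM scaling). Klf4 changed by -0.65 (SE 0.14) in Etv5-KO cells.

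Klf5, Zfp42, Gbx2 and Nr0b1 rose without ETV5. Klf5 went from 888, 739 and 662 to 2108 and 2378 in Etv5-KO cells and from 1539, 1196 and 1187 to 1066, 974 and 919.9 in RGd2 cells, with log2 changes of 1.56 and -0.41. The fall in RGd2 cells was called under spike-in scaling and not under TMM scaling, where it was -0.21, while the rise in Etv5-KO cells (1.32 under TMM scaling) and the difference were called under both. Zfp42 (Rex1), whose locus carries the reporter in these lines, went from 8073, 7852 and 7286 to 14017 and 14517 in Etv5-KO cells, and its log2 change of -0.16 in RGd2 cells was not called. Gbx2, a homeobox gene and target of LIF signalling, rose from 44.6, 31.2 and 37.8 to 532 and 635 in Etv5-KO cells, whereas RGd2 cells began at 233, 190.2 and 254 and reached 1069, 918 and 985. Nr0b1 rose by 1.87 (SE 0.14) in Etv5-KO cells and by 0.87 in RGd2 cells on the log2 scale.

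General pluripotency factors rose in Etv5-KO cells, 10 of 10 (31.2% of all genes rose), or 8 of 10 under TMM scaling (20.0% of all genes), with none called down. In RGd2 cells 4 rose and 3 fell, or 7 and 2 under TMM scaling. Pou5f1 (Oct4) rose by 0.83 (SE 0.10) and Sall4 by 0.79 (SE 0.11). Lin28a, an RNA-binding protein that blocks let-7 maturation, rose from 3767, 3771 and 3847 to 16956 and 18201, a log2 change of 2.21 (SE 0.14) against 0.98 in RGd2 cells. Sox2 changed by 0.33 (SE 0.13), a rise not called under TMM scaling. It was also not called without either library of clone c17 (0.30 without that in 2i and 0.40 without that at N16h) or of clone c1 (0.32 and 0.26).

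**Figure D3:**
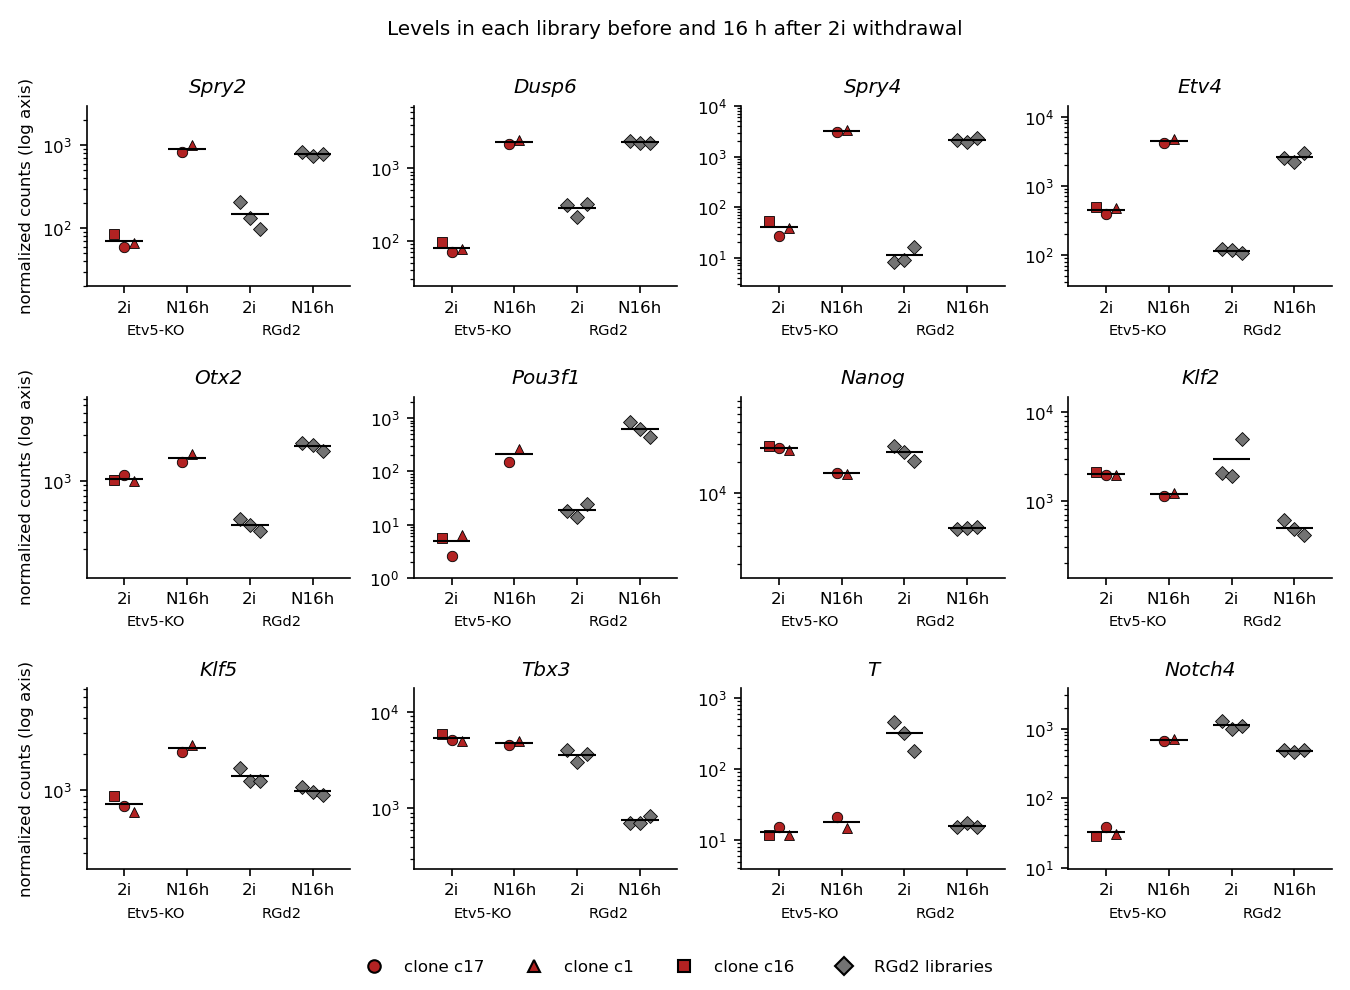
Normalized counts on a log axis for 12 genes in each library, with Etv5-KO clones in red (circle c17, triangle c1, square c16), RGd2 libraries in grey and bars at group means. Nanog, Klf2 and Tbx3 libraries at N16h lie higher in Etv5-KO than in RGd2 cells, T is low in all Etv5-KO libraries, and Otx2 and Etv4 start higher in Etv5-KO cells.

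Among targets of beta-catenin, more fell than rose without ETV5. Of 24 listed genes 23 were tested and 15 passed the FPKM minimum, of which 3 rose and 8 fell in Etv5-KO cells under both scalings, beside 31.2% and 9.45% of all genes. The median log2 change over the 23 was -0.76, or -1.001 under TMM scaling. In RGd2 cells 2 rose and 12 fell, or 3 and 12 under TMM scaling. Axin2, the feedback component of the beta-catenin destruction complex, went from 2769, 2399.7 and 2186 in 2i to 512 and 523 at N16h in Etv5-KO cells, a log2 change of -2.24 (SE 0.16), and of -2.80 in RGd2 cells. Cdx1 and Cdx2, caudal homeobox genes, changed by -4.61 (SE 0.31) and -5.98 (SE 0.58). Sp5, a zinc finger target, went from 209, 124 and 115 to 3.82 and 2.82.

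T (Brachyury), a mesoderm factor and target of Wnt signalling, was low in Etv5-KO cells before withdrawal. It was at 11.8, 15.2 and 12 in Etv5-KO 2i libraries and at 21.4 and 14.8 at N16h, with overlap and no call. RGd2 cells had 457, 318 and 182 in 2i and 15.5, 17.2 and 15.3 at N16h, so that the genotypes were apart in 2i and overlapped at N16h. The difference in response of 4.85 (SE 0.54) and 4.39 under TMM scaling thus went with 2i levels that did not overlap. Bmp4, a ligand of the TGF-beta family, rose from 34.8, 31.2 and 31.5 to 356 and 392 in Etv5-KO cells and was at 232, 155 and 149 and 231, 223 and 272 in RGd2 cells.

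The partner regulators of exit moved as follows. Rbpj, the DNA-binding effector of Notch signalling, rose from 4990.1, 4785 and 4728 to 19050.1 and 19748 in Etv5-KO cells, a log2 change of 2.00 (SE 0.22), and by 1.49 in RGd2 cells. Tcf7l1, which encodes the repressor called TCF3 by the study, went from 1052, 909 and 752 to 1312 and 1569.8 in Etv5-KO cells and from 1185, 882 and 1316 to 814, 698 and 548 in RGd2 cells. Its rise in Etv5-KO cells, 0.67 (SE 0.22), was not called under TMM scaling, nor without the 2i or N16h library of clone c1 (0.56 and 0.54). The difference in response of 1.37 (SE 0.31) was called under both scalings. Of the 13 exit regulators, 12 passed the FPKM minimum. In Etv5-KO cells 5 rose and 3 fell (3 and 3 under TMM scaling), beside 31.2% and 9.45% of all genes past it. The 5 include the targeted gene Etv5, which was not called under TMM scaling.

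Among 16 tested of 18 Notch genes and Hes and Hey repressors, 12 passed the FPKM minimum, 6 rose and 4 fell in Etv5-KO cells, and 3 rose and 7 fell in RGd2 cells. Under TMM scaling the counts were 5 and 5 in Etv5-KO cells and 4 and 7 in RGd2 cells. Of all genes past the minimum in Etv5-KO cells, 31.2% rose and 9.45% fell, or 20.0% and 24.9% under TMM scaling. Notch4, a Notch receptor, went from 29.3, 38.8 and 30.9 in 2i to 656 and 719.7 at N16h in Etv5-KO cells, while RGd2 cells fell from 1269, 1002 and 1086 to 498, 463 and 493. Its log2 changes were 4.39 (SE 0.18) and -1.21 (SE 0.14), a difference of 5.60 (SE 0.23, adjusted p = 3.27e-21 in edgeR's quasi-likelihood test, Benjamini-Hochberg adjusted). At N16h the Etv5-KO libraries lay above the RGd2 libraries by less than the gap in 2i. Hes1, a repressor downstream of Notch, had log2 changes of -1.32 (SE 0.17) in Etv5-KO cells and -2.58 in RGd2 cells. The Notch ligand Dll1 rose by 2.87 (SE 0.22) in Etv5-KO cells and 2.94 in RGd2 cells.

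Of 18 tested Nodal, TGF-beta and BMP genes, 17 passed the FPKM minimum. In Etv5-KO cells 6 rose and 6 fell, and in RGd2 cells 3 rose and 10 fell. Under TMM scaling the counts were close, 6 and 7 in Etv5-KO and 6 and 8 in RGd2 cells, and the rising share in Etv5-KO cells is near the 31.2% of all genes. Lefty1, an inhibitor of Nodal, went from 6717, 6063 and 5825 to 669 and 884 in Etv5-KO cells, a log2 change of -3.00 (SE 0.19). The BMP targets Id1 and Id3, inhibitors of helix-loop-helix factors, rose by 3.34 (SE 0.32) and 2.23 (SE 0.17). Id3 was at 179.7, 140.2 and 161 and 712 and 799 in Etv5-KO cells while its change of 0.18 in RGd2 cells was called under TMM scaling (0.40) and not under spike-in scaling. Id4 fell to 72.5 and 73.2 in Etv5-KO cells and to 17, 9.92 and 7.16 in RGd2 cells, log2 changes of -1.07 and -4.59.

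Sterol synthesis genes rose together without ETV5. Of 20, 19 rose and none fell, beside 31.2% and 9.45% of all genes, with a median log2 change of 0.69, while 9 rose and none fell in RGd2 cells, with a median of 0.21. Under TMM scaling most of that gap was absent, with 16 up and a median of 0.45 in Etv5-KO cells and 14 up and a median of 0.40 in RGd2 cells. Dhcr7, the last enzyme of cholesterol synthesis, rose by 0.88 (SE 0.15) in Etv5-KO cells. The difference from RGd2 cells was more positive under both scalings for this gene alone among the 20, beside 8.52% of all genes. Of 17 glycolysis genes 8 rose and 2 fell in Etv5-KO cells (31.2% and 9.45% of all genes did), or 6 and 4 under TMM scaling. Pfkm, a phosphofructokinase, rose from 1719, 1484 and 1443 to 4466 and 4894, and Slc2a3, a glucose transporter, changed by -0.25, which was not called under spike-in scaling and was called under TMM scaling. Of 14 LIF and STAT3 genes, 11 of them past the FPKM minimum, 7 rose and 3 fell, or 6 and 4 under TMM scaling (20.0% and 24.9% of all genes). Of 16 FGF ligands and receptors only 9 passed the FPKM minimum. Of those 9, 5 rose and none fell (4 and 1 under TMM scaling), beside 31.2% and 9.45% of all genes past it.

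Markers of other fates were mostly below the FPKM minimum, which 1 of 13 tested mesoderm and endoderm markers, 3 of 7 neural, 4 of 6 trophoblast and 2 of 5 fibroblast markers passed in Etv5-KO cells. No mesoderm or endoderm marker was called, 12 of the 13 being below the minimum. Their summed FPKM was 5.24 to 5.79 in 2i and 5.304 to 5.42 at N16h in Etv5-KO cells, and 9.22 to 14.3 and 2.77 to 4.69 in RGd2 cells. Neural markers summed to 24.8 to 27.5 and 25.3 in Etv5-KO cells and to 48.5 to 57.8 and 18.1 to 22.0 in RGd2 cells, with Sox1 called up in Etv5-KO cells and, under TMM scaling alone, Tubb3 called down. Trophoblast markers summed to 21.3 to 22.7 and 20.6 to 21.9 in Etv5-KO cells, with the keratin genes Krt8 and Krt18 up and Cdx2 and Tfap2c down, and to 15.2 to 20.9 and 6.99 to 8.01 in RGd2 cells. At N16h the Etv5-KO sum thus lay above that of every RGd2 library for these lists, and for the fibroblast list that follows. Rbpj-KO sums at N16h also lay above every RGd2 library for the neural (32.9 to 33.9), trophoblast (19.3 to 26.6) and fibroblast lists (1.66 to 2.18). For mesoderm and endoderm markers the Rbpj-KO sums (4.62 to 11.8) overlapped those of RGd2 cells. Fibroblast markers summed to 1.14 to 1.44 and 1.62 to 1.80 in Etv5-KO cells and to 1.78 to 2.199 and 0.848 to 1.09 in RGd2 cells, with Thy1 up, Pdgfrb down and Dcn at 0 in every 2i library of both genotypes. General pluripotency factors summed to 698 to 722 and 1360 to 1386 in Etv5-KO cells. The part of these markers in the other results was not tested.

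The 10 genes with the largest rise among those whose Etv5-KO libraries did not overlap were Inhbb, 1700024G13Rik, Fgf5, Prss46, 9330159F19Rik, Pax8, Gm16136, Gm43293, Soga3 and Pdyn. All but Soga3 had at most 3 counts in each 2i library, so that their folds are ratios to a few reads. Inhbb, the beta B subunit of activin and inhibin, went from 2.09, 0.844 and 1.89 to 678 and 723, a ratio of 421 (counting interval 204 to 1050), while RGd2 cells had 56.4, 42 and 40.4 and 548, 523 and 758. 1700024G13Rik was not detected in 2i and was at least 17.2-fold higher at N16h against a floor of 3 counts per library. Pax8, a paired box factor, went from 1.39, 0.844 and 1.26 to 189 and 233, with RGd2 cells at 41.2, 37.4 and 36.3 and 660.4, 606 and 481. Gm43293 was likewise not detected in 2i and at least 7.08-fold higher. Soga3 rose from 5.57, 5.91 and 5.68 to 749.6 and 853.

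The 10 with the largest fall were Spic, Gm13420, Adgrg5, Gm13844, Gm19790, S1pr1, Pglyrp1, Rtl8c, Cdx2 and Mogat2. Spic, an ETS family factor, went from 519.7, 548 and 503 to 1.53 and 0 in Etv5-KO cells, a ratio of 711 (counting interval 197 to 5879), and from 481, 430.1 and 254 to 5.18, 4.18 and 3.07 in RGd2 cells. Gm13420, Gm13844 and Gm19790 were not detected at N16h and were at least 14.3-fold, 7.89-fold and 5.18-fold lower. S1pr1, a sphingosine phosphate receptor, fell from 1052, 947 and 761 to 15.3 and 5.63 and Pglyrp1, a peptidoglycan recognition protein, from 259.9, 159.6 and 202 to 0.763 and 4.23. Both fell in RGd2 cells as well, to 0, 2.61 and 0 and 0.74, 6.27 and 4.09.

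Over all genes, the 8 largest more positive differences in response were in Gm11168, Notch4, Gm47144, Rac2, Gm26870, Tgm3, Inhbb and Apol6. Rac2, a small GTPase, went from 43.9, 28.7 and 20.8 to 255 and 294 in Etv5-KO cells and from 435, 407 and 315 to 82.8, 76.8 and 84.9 in RGd2 cells. Tgm3, a transglutaminase, and Apol6 rose from 2.09, 8.44 and 4.41 to 198 and 194 and from 21.6, 12.7 and 13.9 to 333 and 351 in Etv5-KO cells, with log2 changes of 0.18 and -0.52 in RGd2 cells. Gm11168 and Gm26870 owed their place to 1 library. Gm26870 was at 284, 286 and 264 and 292 and 275 in Etv5-KO cells, and at 224, 121 and 28086 in RGd2 2i libraries, the last being the shallow clonal library. Gm11168 was at 26.9, 22.2 and 9775 in the same libraries. Without RGd2 2i replicate 33 their differences in response were -0.52 and -1.12, in the opposite direction and not called.

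The 8 largest more negative differences were in Rhox2-ps, Cd4, Ccdc194, Srms, Gfra1, Tiam2, Spic and Gm16220. Cd4, better known as a T cell co-receptor, was at 226, 215 and 204 in Etv5-KO 2i libraries and at 13.7 and 5.63 at N16h, against 11.6, 0.764 and 8.08 and 5.18, 5.22 and 4.09 in RGd2 cells. Tiam2, an exchange factor for Rac, went from 396, 388 and 368 to 59.5 and 72.5 in Etv5-KO cells, with RGd2 cells at 43.9, 39.7 and 32.3 and 66.6, 53.8 and 29.7. Cd4 and Tiam2 were thus high in Etv5-KO cells in 2i and came down to near the RGd2 range. Srms, a Src-related kinase, was not called in Etv5-KO cells (20.2, 30.4 and 17 in 2i and 16 and 21.1 at N16h) and rose in RGd2 cells from 9.85, 9.93 and 32.3 to 164, 167 and 131. Gfra1, a GDNF receptor, went from 16, 18.6 and 22.7 to 88.5 and 89.4 in Etv5-KO cells with no overlap, and rose to 199, 179.7 and 189 in RGd2 cells. Its Etv5-KO change was not called, where a call required the FPKM minimum as well as the adjusted p. Rhox2-ps and Ccdc194 had at most 3 reads in each RGd2 2i library, so that their fitted differences depend on the prior count, and the calls for Rhox2-ps, Ccdc194 and Spic were lost in 9, 2 and 3 of 18 alternative settings.

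**Figure D4:**
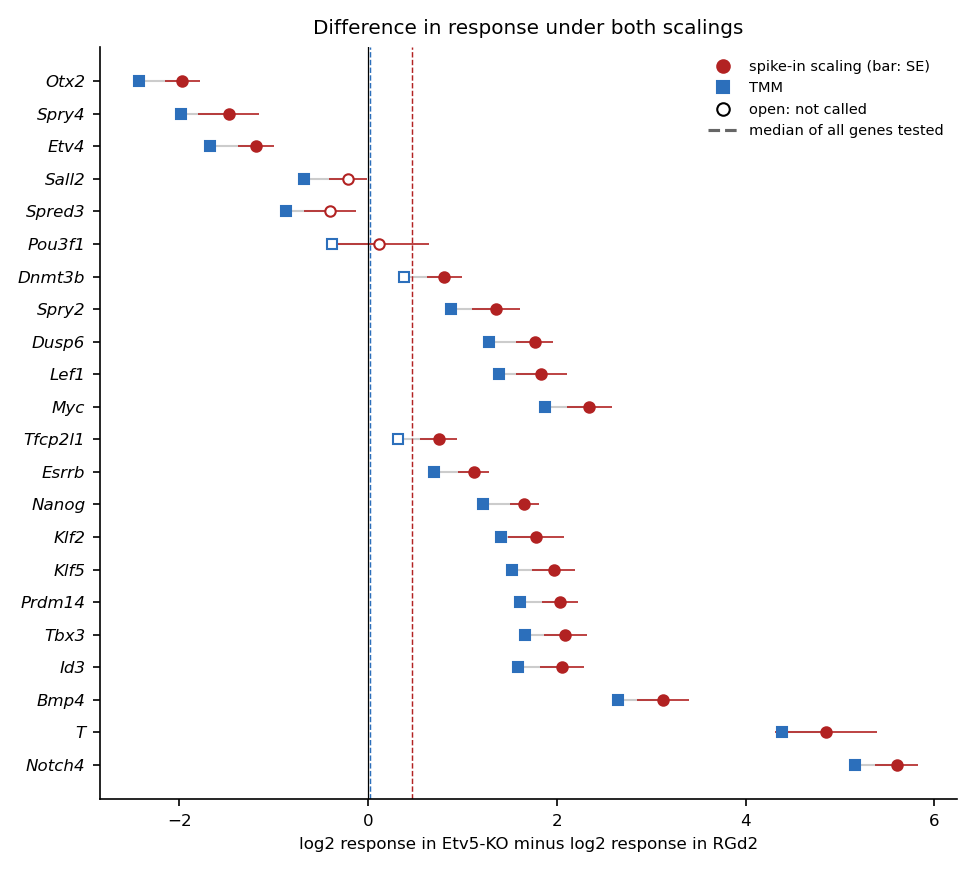
Difference in response (Etv5-KO minus RGd2, log2) under spike-in scaling (red circles, bars are SE) and TMM scaling (blue squares) for 22 genes, with dashed lines at the medians of all genes tested (0.47 and 0.02) and open symbols for values not called. Otx2, Spry4 and Etv4 lie below 0 and Notch4, T and Bmp4 furthest above it under both scalings.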

How the data were processed

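RNA was sequenced from cultured mouse embryonic stem cells. Per the labels and the methods of the study, the authors depleted ribosomal RNA, made strand-specific libraries, ran Trim Galore on the reads, mapped them to mm10 plus ERCC sequences (TopHat2) and counted unique primary alignments on the gene's strand (featureCounts, Gencode M14). The deposited values are raw counts, one table for 51826 genes and one for 92 spike-ins. The molecule field of the labels reads polyA RNA, which differs from that description. Samples were grouped by the labels.

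Genes with low counts were filtered, leaving 19037 tested. edgeR 4.0.16 (R 4.3.3) quasi-likelihood tests were fitted to all 32 libraries, scaled by 52 spike-ins detected in every library, with Benjamini-Hochberg adjustment over genes with results. FPKM was computed here from the deposited counts and gene lengths. Each SE is the absolute log2 change divided by the square root of the test's F statistic. It is not a standard error from the fit and is rough for small changes or low counts. Alternatives were TMM and median-of-ratios scaling, DESeq2 1.42.0, only the libraries compared, other filters, a 1.5-fold minimum, the clonal line as a replicate block, and each library left out. Symbols came from a name table (193 IDs had none), and guide sequences were matched to Gencode M21 transcripts (GRCm38).

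The calling steps were also run on counts simulated with no shift over all genes. That run does not bear on the choice of scaling, and its outcome is not used here. Replicate libraries of 1 group differed by more than counting noise in every pair (mean chi-square per gene from 5.87 to 44.3). The RGd2 2i pairs that include replicate 33 gave 44.3 and 43.3, and the pair without it gave 8.43. Clones c17 and c1 are the same lines in both cultures, which pairs them. Their deviations from the group means in the cultures correlated at 0.03 and -0.05 across genes. With 2 Etv5-KO libraries at N16h the deviations there are mirror images of each other. These values therefore are not separate checks and cannot show whether the pairing matters. The members and gene lists were chosen with earlier results of these data known. Named genes were the list members, the 10 largest called changes per direction with no overlap of Etv5-KO libraries, the 8 largest called differences in response per direction, each with at least 10 counts in an Etv5-KO library, and Etv5, Rbpj and Tcf7l1. Clones of a genotype are separate lines, while RGd2 replicates include repeat cultures of 1 line, so p-values measure the spread between these samples. Intervals and floors (3 counts per library) cover counting error only.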

Additional observations from a re-analysis of the deposited data

Results flagged for a closer look

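The genes below responded differently to withdrawal in Etv5-KO and RGd2 cells by a test of the difference itself, under spike-in and TMM scaling alike. Values are the log2 response in Etv5-KO cells minus that in RGd2 cells under spike-in scaling, where the median of all genes tested was 0.47. Among ERK response and feedback genes, the differences were 1.36 for Spry2, 1.39 for Dusp4, 1.76 for Dusp6, 2.35 for Myc, -1.48 for Spry4 and -1.18 for Etv4. Among formative genes, the differences were -1.96 for Otx2, 1.84 for Lef1, 1.44 for Grhl2 and 2.29 for Fgf15. Among naive factors, the differences were 1.66 for Nanog, 1.78 for Klf2, 1.97 for Klf5, 1.12 for Esrrb, 2.09 for Tbx3, 2.04 for Prdm14, 1.04 for Zfp42, 1.77 for Gbx2 and 0.99 for Nr0b1. Among general pluripotency factors, the differences were 1.06 for Sall4 and 1.23 for Lin28a. Among Wnt targets and exit regulators, the differences were 4.85 for T, 3.12 for Bmp4 and 1.37 for Tcf7l1. Among BMP and Notch genes, the differences were 2.05 for Id3, 3.52 for Id4, 5.60 for Notch4 and 1.27 for Hes1. Among metabolic genes, the differences were 0.97 for Dhcr7, 1.75 for Pfkm and 0.93 for Slc2a3.

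Among the largest differences over all genes, those more positive in Etv5-KO cells were 5.41 for Gm47144, 5.41 for Rac2, 5.25 for Gm26870, 5.144 for Tgm3, 4.95 for Inhbb and 4.91 for Apol6. Those more negative were -4.56 for Rhox2-ps, -4.15 for Cd4, -4.03 for Ccdc194, -3.81 for Srms, -3.06 for Gfra1, -2.88 for Tiam2, -2.74 for Spic and -2.40 for Gm16220. The values for Rhox2-ps, Ccdc194, Inhbb and Spic involve a group with at most 3 counts per library and depend on the prior count. The value for Gm26870 rests on RGd2 2i replicate 33, without which it was -0.52. No group of Etv5-KO or RGd2 libraries had the 4 samples needed to check for a single outlying library.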

How the results depend on the processing

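Counts moved with the scaling, the fold and FPKM minimums and single libraries. Under TMM, 2363 genes rose and 2949 fell in Etv5-KO cells, 2431 rose in RGd2 cells, the difference from RGd2 was more positive for 1044 and more negative for 559, and that from Rbpj-KO for 649 and 369. Median-of-ratios scaling gave 2622 falling in Etv5-KO cells, 2777 rising and 2737 falling in RGd2 cells, and differences of 1046 and 567 from RGd2 and 653 and 388 from Rbpj-KO. Fitting only the libraries compared gave 2445 falling in RGd2 cells, 2263 more positive differences from RGd2, and 2177 and 146 differences from Rbpj-KO. With no FPKM minimum, 1614 genes rose in RGd2 cells, 116 had a more negative difference from RGd2, and 789 rising and 874 falling early exit genes were called in the same direction, since more genes entered. A 1.5-fold minimum left 2111 rising and 733 falling genes in Etv5-KO cells and 2262 falling in RGd2 cells.

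With each library left out in turn, Etv5-KO cells had 2085 to 3829 rising and 721 to 1172 falling genes, and RGd2 cells 844 to 1419 and 2967 to 5656. The difference from RGd2 was more positive for 2068 to 7125 and more negative for 44 to 78, and that from Rbpj-KO for 447 to 1637 and 37 to 71. Early exit genes called in the same direction numbered 309 to 413 rising and 460 to 652 falling. Changes beyond 1.5 times came without the N16h library of c1 (2085 rising; 2068 more positive against RGd2; 447 and 41 against Rbpj-KO), that of c17 (721 falling; 37 against Rbpj-KO), the 2i library of c1 (2969 and 681), RGd2 2i replicates 31 (2654) and 33 (7125), Rbpj-KO 2i replicate 28 (796) and Rbpj-KO N16h replicate 20 (818). The cause was not tested.

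With the clonal line as a replicate block, which pairs c17 and c1 across cultures, 3821 genes rose and 899 fell in Etv5-KO cells and the difference from RGd2 was called for 4771 and 69. The falls of Esrrb (-0.23) and rise of Etv5 (0.44) were then not called. Over the named genes, 596 of 624 alternative values of the Etv5-KO change stayed on their side of the threshold, 24 were no longer called, 4 became called and none reversed, and for the difference in response 882 of 916 stayed, 23 were lost, 4 gained and 7 reversed. Those 7 were Pou3f1, not called in any of them (-0.38 under TMM, -0.39 under median of ratios, -0.14 without the 2i library of c17, -0.35 without the N16h library of c1 and -0.08 without RGd2 N16h replicate 24, within a leave-one-out range of -0.35 to 0.47), and Gm11168 (-1.12) and Gm26870 (-0.52) without RGd2 2i replicate 33, whose leave-one-out values reached 6.51 and 5.84 without replicate 32. With 2 Etv5-KO libraries at N16h, a missed call does not show that a gene did not respond.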
